A study of Mus musculus with 12 samples.

Results

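The 10 genes described here belong to the glucocorticoid response: Nr3c1, which encodes the glucocorticoid receptor, and 9 genes that are known targets of it (Fkbp5, Tsc22d3, Klf9, Zbtb16, Per1, Sgk1, Dusp1, Errfi1 and Pdk4). They were chosen by symbol, and each is represented by all of its single-gene probe sets, 29 of the 45037 probe sets tested and 10 of the 18193 genes measured. The data are 12 Affymetrix arrays of cultured mouse astrocytes of the C57Bl/6j strain that express eGFP and had lain for 22 h on a mouse brain section, 3 arrays for each of 4 groups. In all groups the fluorescent cells were picked from the section by suction after brief trypsin. The groups were adult astrocytes on APdE9 sections, adult astrocytes on wild-type sections, neonatal astrocytes on APdE9 sections and neonatal astrocytes on wild-type sections. APdE9 mice carry chimeric mouse/human APPSwe and PS1-dE9 transgenes, each driven from a mouse prion protein promoter, and the wild-type sections came from their littermates. The genotype belongs to the section only, since the astrocytes themselves carried neither transgene. Adult cells came from mice of 6 to 8 weeks, and neonatal cells from pups given as 3 d old in the sample labels and as 2 days old in the growth protocol. Samples had been pooled by 3 ahead of the RNA preparation. Each array therefore stands for a pool, and p-values here measure the spread between pools, which may be partly technical.

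Glucocorticoids enter the cell and bind the receptor, which waits in the cytoplasm in a complex with heat shock proteins and immunophilins. The loaded receptor moves to the nucleus, where it binds palindromic response elements and raises its targets, and it also dampens genes driven by NF-kB and AP-1. Astrocytes express the receptor, and several of the targets followed here are among the standard markers of hormone action in brain. Adult astrocytes were grown in DMEM/F12 with G5 supplement, a growth supplement that contains hydrocortisone together with insulin, transferrin, selenite, biotin and growth factors of the EGF and FGF families. Neonatal astrocytes were grown in DMEM without it and were isolated without Percoll. Hydrocortisone, the growth factors, the isolation method and the age of the cells therefore cannot be told apart in any comparison of adult with neonatal cells. Whether the supplement was present during the hours on the section is not given in the sources used here.

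RefSeq start-site windows (GRCm38.p6, 250 bases before to 50 after the start) were found for 8 of the 10 genes, 17 windows in all. They are shown for the 3 genes whose window held a full palindromic response element, of the glucocorticoid receptor or of cAMP-driven factors. Capitals mark the motif.
Sgk1: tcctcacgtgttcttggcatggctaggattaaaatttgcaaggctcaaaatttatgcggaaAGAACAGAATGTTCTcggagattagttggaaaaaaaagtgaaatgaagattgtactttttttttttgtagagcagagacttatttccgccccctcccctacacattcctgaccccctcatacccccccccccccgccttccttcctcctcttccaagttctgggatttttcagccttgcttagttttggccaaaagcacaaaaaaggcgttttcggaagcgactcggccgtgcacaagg
Dusp1: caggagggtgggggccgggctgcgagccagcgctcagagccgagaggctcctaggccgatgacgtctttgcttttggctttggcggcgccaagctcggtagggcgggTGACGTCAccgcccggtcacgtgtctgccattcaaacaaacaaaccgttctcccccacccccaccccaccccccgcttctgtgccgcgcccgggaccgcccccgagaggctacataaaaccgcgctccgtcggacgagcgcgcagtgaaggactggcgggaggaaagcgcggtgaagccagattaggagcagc
Errfi1: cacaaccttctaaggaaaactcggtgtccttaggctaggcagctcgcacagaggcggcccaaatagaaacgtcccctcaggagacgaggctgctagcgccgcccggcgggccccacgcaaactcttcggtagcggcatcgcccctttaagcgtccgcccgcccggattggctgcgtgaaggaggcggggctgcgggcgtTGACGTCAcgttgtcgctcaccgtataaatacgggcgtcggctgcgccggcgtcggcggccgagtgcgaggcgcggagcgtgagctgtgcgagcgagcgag
The Sgk1 window is chr10:21993640-21993939 on the plus strand, 1 of 6 windows of this gene. Its capitals are a glucocorticoid response element of the letters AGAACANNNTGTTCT at bases 189 to 175 before the start. These letters occurred, on either strand, in 3 of 32851 windows of all genes, or 0.00913%. The shorter arm TGTTCT alone was in 19.0% of all windows and in 4 of the 17 windows of the genes described here, all of Sgk1 or Tsc22d3. The Dusp1 window is chr17:26508423-26508722 on the minus strand and the Errfi1 window is chr4:150854820-150855119 on the plus strand. Their capitals are the cAMP response element TGACGTCA, at bases 143 to 136 before the start in Dusp1 and 51 to 44 before it in Errfi1, and 1.79% of all windows held these letters. The E-box CACGTG, the site of clock and MYC-type factors, was in 1 window each of Sgk1, Per1, Dusp1 and Fkbp5, against 7.15% of all windows, and in Sgk1 it overlapped the arm TGTTCT. A match is a description of the letters and does not show a site in use.

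Values are log2 signals from which the median of each probe set over the 12 arrays had been subtracted before deposit, so only differences between arrays can be read, not levels, and no gene can be called absent. Each gene value is the mean of its probe sets. Genes were called with limma at an adjusted p (Benjamini-Hochberg over all 18193 genes) below 0.05. The defining markers of astrocytes differed between the cultures: 8 of 10 were lower and 2 higher in adult than in neonatal cells on wild-type sections, and Gfap differed by -4.24 ± 0.11 (log2, SE). Of 13 microglial markers, 12 were lower in adult cells on either section, with array means between -2.34 and -1.49 in adult and between 1.43 and 2.09 in neonatal cells. The other, Tmem119, was higher in adult cells on wild-type sections (1.03 ± 0.13) and not called on APdE9 sections (0.06 ± 0.13). Of 11 mural and fibroblast markers, 8 were higher in adult cells on wild-type sections. On APdE9 sections 6 of 10 astrocyte markers were lower and 1 higher in adult cells. Of the mural and fibroblast markers there, 3 were higher and 1 lower, with a median of 0.04 against 1.18 on wild-type sections. These shifts stand beside the comparisons of adult with neonatal cells on the same section below, and their part in them was not tested. In RNA of pooled cells, fewer cells of a type and less RNA per cell cannot be told apart.

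**Figure D1:**
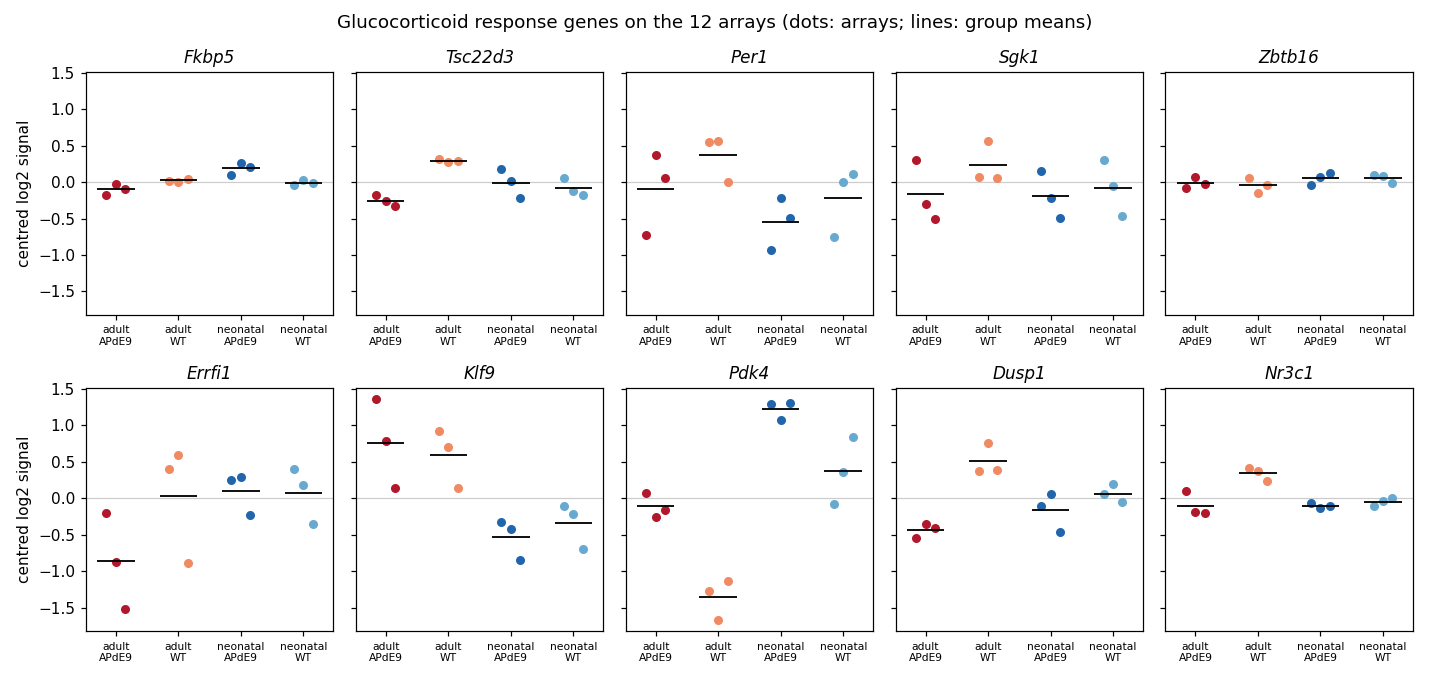
Centred log2 signal of the 10 genes on the 12 arrays (vertical axis), by group from left to right as adult APdE9, adult wild-type, neonatal APdE9 and neonatal wild-type. Dots are arrays in the order of their replicate numbers 1, 2 and 3, and lines are group means. Adult cells on wild-type sections stand highest for Tsc22d3, Dusp1 and Nr3c1 and lowest for Pdk4.

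Adult astrocytes on APdE9 sections had more Pdk4 and less Dusp1, Tsc22d3 and Nr3c1 transcript than adult astrocytes on wild-type sections. Of the 10 genes, 1 was higher and 3 lower, while 17.7% of all genes were called in this comparison, 8.26% higher and 9.4% lower. The median difference of the 10 genes was -0.42, against 0.05 for all genes. In neonatal astrocytes the same contrast called 1 of the 10 genes, Pdk4, which was higher, where 3.76% of all genes were called, 1.21% higher and 2.55% lower. The median difference there was -0.03, against 0.00 for all genes. The arrays of both sections did not overlap for 5 of the 10 genes in adult cells, against 36% of all genes, and for 2 of the 10 in neonatal cells, against 17.7%.

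Cell type markers differed between the sections too. In adult cells 5 of 11 mural and fibroblast markers were lower and 1 higher on APdE9 sections, with Tagln at -3.37 ± 0.15 and Myl9 at -2.94 ± 0.15, and their array means were -0.06 to 0.20 on APdE9 against 0.91 to 1.15 on wild-type sections. Of 13 microglial markers, 6 were higher and 1 (Tmem119) lower, with array means of -1.56 to -1.49 on APdE9 against -2.34 to -2.07 on wild-type sections, and Ctss, a lysosomal protease of microglia, was higher by 3.53 ± 0.22. Oligodendrocyte markers were higher for 5 of 8 and lower for none, and astrocyte markers higher for 5 of 10 and lower for 1 (Gja1). In neonatal cells 2 of 13 microglial markers were higher on APdE9 sections (4 with replicate number as a block), with array means of 1.90 to 2.09 against 1.43 to 1.92 on wild-type sections, and 4 of 10 astrocyte markers were lower. Oligodendrocyte markers there were higher for 2 of 8 and lower for 2, with Mbp at 1.80 ± 0.20 (1.78 ± 0.20 in adult cells) and Cnp at -0.59 ± 0.08. Of 11 mural and fibroblast markers in neonatal cells, 3 were higher and 2 lower, with Lum at 0.94 ± 0.17 and Myl9 at -1.25 ± 0.15. The part of these shifts in the differences of the 10 genes between sections was not tested.

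Nr3c1, the receptor itself, measured 0.09, -0.18 and -0.21 in adult cells on APdE9 sections, against 0.42, 0.38 and 0.23 on wild-type sections. All 3 pools on APdE9 sections lay below all 3 on wild-type sections. The difference was -0.44 ± 0.09 (log2, SE, 3 arrays each, adjusted p = 0.00517), or 1.36-fold lower. In neonatal cells the values were -0.06, -0.13 and -0.11 on APdE9 sections, against -0.11, -0.04 and 0.01 on wild-type sections. These overlapped, with a difference of -0.05 ± 0.09 (adjusted p = 0.911). The gene is reported by 6 probe sets, and they were not alike. In adult cells 1421866_at differed by -1.31 ± 0.24 and 1460303_at by -0.65 ± 0.11 between APdE9 and wild-type sections (adjusted p over all probe sets 0.00371 and 0.00215). The other 4 lay between -0.40 and 0.01 and did not pass the test.

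Fkbp5 encodes the immunophilin of the receptor complex that lowers hormone binding, and it is a widely used read-out of receptor action. Its values were -0.17, -0.03 and -0.09 in adult cells on APdE9 sections, against 0.01, 0.01 and 0.05 on wild-type sections. In neonatal cells they were 0.10, 0.26 and 0.21 on APdE9 sections, against -0.04, 0.03 and -0.01 on wild-type sections. The groups did not overlap at either age, with APdE9 sections lower in adult and higher in neonatal cells, yet neither difference passed the test (-0.12 ± 0.07, adjusted p = 0.286, and 0.20 ± 0.07, adjusted p = 0.193). The gene had a pooled within-group SD of 0.058, a smaller one than all but 2.52% of genes. Only 1 of its 3 probe sets, 1416125_at, carried differences of size. It read 0.62, 0.66 and 0.57 in neonatal cells on APdE9 sections, against 0.18, 0.09 and -0.05 on wild-type sections, a difference of 0.54 ± 0.10 (adjusted p over all probe sets 0.0149). In adult cells it read -0.37, -0.31 and -0.16 on APdE9 sections, against -0.13, -0.15 and 0.05 on wild-type sections (-0.21 ± 0.10, adjusted p = 0.211). The other 2 probe sets lay between -0.12 and 0.09 in these contrasts and were not called.

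Tsc22d3, also known as Gilz, encodes a leucine zipper protein that carries part of the anti-inflammatory action of glucocorticoids. It measured -0.18, -0.26 and -0.33 in adult cells on APdE9 sections, against 0.31, 0.27 and 0.28 on wild-type sections, with no overlap. The difference was -0.55 ± 0.10 (adjusted p = 0.00267), or 1.46-fold lower. Neonatal cells gave 0.18, 0.01 and -0.22 on APdE9 sections, against 0.05, -0.13 and -0.17 on wild-type sections, which overlapped (0.07 ± 0.10, adjusted p = 0.874). In adult cells 3 of its 4 probe sets were lower on APdE9 sections, by -1.04 ± 0.23 (1420772_a_at, adjusted p = 0.00995), -0.92 ± 0.12 (1425281_a_at, adjusted p = 0.000259) and -0.28 ± 0.09 (1425557_x_at, adjusted p = 0.0478). The fourth, 1444365_at, gave 0.06 ± 0.12. Probe sets ending in _x_at or _s_at may also detect related transcripts, so 1425557_x_at is uncertain. The same holds for the other probe sets with such endings, among them 1422264_s_at of Klf9, 1453860_s_at of Nr3c1 and 1419816_s_at of Errfi1.

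Dusp1, the phosphatase that switches off p38 and JNK and is a known early target of both the receptor and growth signals, measured -0.55, -0.35 and -0.41 in adult cells on APdE9 sections, against 0.38, 0.76 and 0.38 on wild-type sections. The gap between the groups exceeded the spread within either. The difference was -0.94 ± 0.14 (adjusted p = 0.000575), or 1.92-fold lower. Neonatal cells gave -0.10, 0.06 and -0.46 on APdE9 sections, against 0.05, 0.19 and -0.05 on wild-type sections (-0.23 ± 0.14, adjusted p = 0.538). Among other immediate early genes, the fast-responding transcription factors and regulators of the same kind as Dusp1, 5 of 16 were also lower and none higher in adult cells on APdE9 than on wild-type sections, with a median of -0.54. The 4 with the widest differences were Nr4a1 (-1.85 ± 0.47), Fosb (-1.78 ± 0.41), Btg2 (-1.72 ± 0.25) and Fos (-1.39 ± 0.36). In neonatal cells none of the 16 was called with limma at this threshold, and with replicate number as a block 4 were lower (median -0.37). The list median in adult cells stands against 0.05 for all genes and that in neonatal cells against 0.00.

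Pdk4 encodes the kinase that shuts pyruvate dehydrogenase and turns cells from glucose to fatty acid oxidation. It moved opposite to the other called genes. Its values were 0.07, -0.25 and -0.15 in adult cells on APdE9 sections, against -1.27, -1.67 and -1.13 on wild-type sections. In neonatal cells they were 1.30, 1.08 and 1.31 on APdE9 sections, against -0.07, 0.36 and 0.84 on wild-type sections. Every pool on APdE9 sections lay above every pool on wild-type sections at the same age. The difference was 1.25 ± 0.20 in adult cells (2.37-fold, adjusted p = 0.000997) and 0.85 ± 0.20 in neonatal cells (1.80-fold, adjusted p = 0.0372). The neonatal call was lost when any of 8 arrays was left out: neonatal APdE9 1, 2 or 3 (adjusted p = 0.121, 0.0686 and 0.104), neonatal wild-type 1 or 2 (0.0818 and 0.135), adult APdE9 2 or 3 (0.0538 and 0.0504) or adult wild-type 1 (0.0520). It was also lost when the 6 neonatal arrays were fitted alone (0.0980) and when its probe set was tested over all probe sets (0.0595). Of its relatives, Pdk1 and Pdk3 went the other way in adult cells, by -0.85 ± 0.17 and -0.80 ± 0.14 between APdE9 and wild-type sections (adjusted p = 0.00375 and 0.00181).

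Errfi1, an inhibitor of the EGF receptor family, had the widest spread of the 10 genes, with a pooled within-group SD of 0.57 and 99% of all genes below it. It measured -0.20, -0.87 and -1.52 in adult cells on APdE9 sections, against 0.40, 0.59 and -0.89 on wild-type sections. The groups overlapped only through the third wild-type pool. The difference of -0.90 ± 0.39 did not pass (adjusted p = 0.139), while without adult wild-type replicate 3 it was -1.36 (adjusted p = 0.0171). Probe set 1416129_at gave -0.61 ± 0.37 and 1419816_s_at gave -1.19 ± 0.42 (adjusted p over all probe sets 0.343 and 0.0928). Neonatal cells gave 0.25, 0.29 and -0.23 on APdE9 sections, against 0.40, 0.18 and -0.36 on wild-type sections (0.03 ± 0.39, adjusted p = 0.993). Of 11 other genes tied to ERK signalling, most of them inhibitors of it, 3 were higher and none lower in adult cells on APdE9 sections: the inhibitors Spred2 (0.56 ± 0.14) and Spred1 (0.45 ± 0.12), and Etv5 (0.39 ± 0.11), a transcription factor downstream of ERK.

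The other 4 genes were not called between sections at either age. Klf9, a Krüppel-like factor raised by the receptor in neural cells, measured 1.36, 0.78 and 0.14 in adult cells on APdE9 sections, against 0.93, 0.71 and 0.14 on wild-type sections (0.17 ± 0.29, adjusted p = 0.740). In neonatal cells it gave -0.33, -0.42 and -0.85 on APdE9 sections, against -0.11, -0.21 and -0.69 on wild-type sections (-0.19 ± 0.29, adjusted p = 0.891). The groups of each age overlapped. Sgk1, an ion-channel and survival kinase, differed between APdE9 and wild-type sections by -0.40 in adult cells (95% interval -0.94 to 0.14) and by -0.11 in neonatal cells (-0.65 to 0.43). Per1, a repressor of the circadian clock, differed by -0.47 in adult cells (-1.13 to 0.19) and by -0.34 in neonatal cells (-0.99 to 0.32). For these 2 genes the intervals still allow sizeable differences. Zbtb16, a zinc finger transcription factor that is strongly hormone-induced in human cells, differed by 0.03 in adult cells (-0.15 to 0.20) and by -0.01 in neonatal cells (-0.18 to 0.17), so its intervals were narrow. Signal over background is unknown here, so narrow intervals cannot tell an unchanged transcript from probe sets that do not respond.

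**Figure D2:**
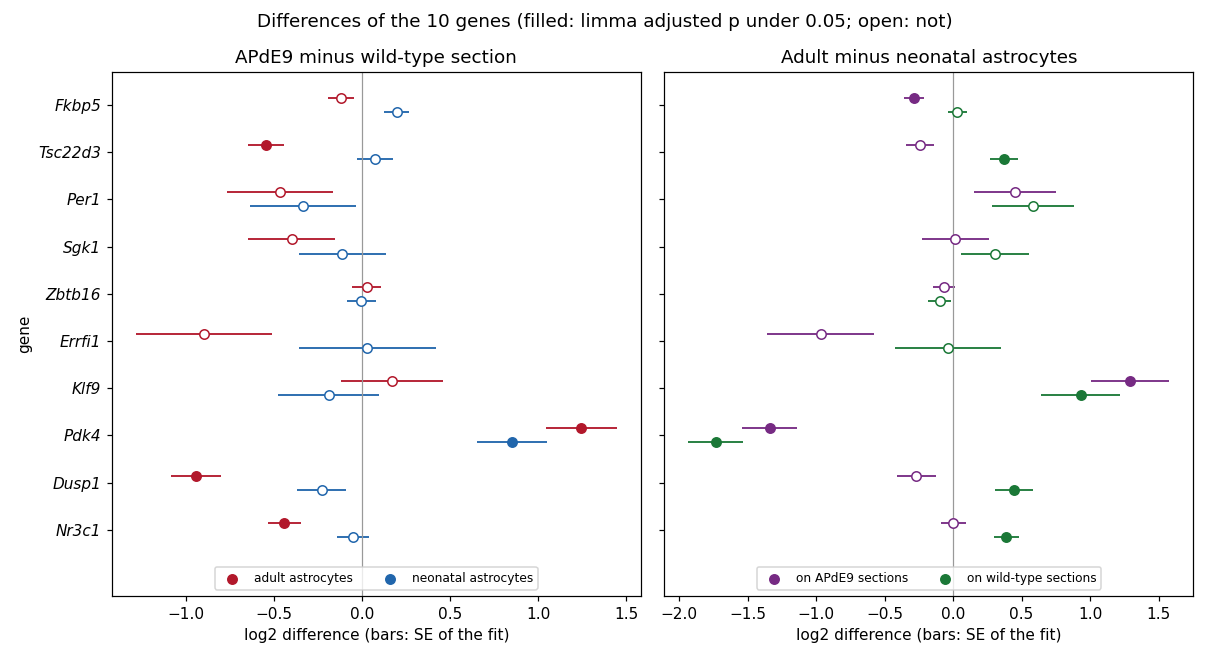
Log2 difference (horizontal axis) of each of the 10 genes (rows) between APdE9 and wild-type sections (left) and between adult and neonatal astrocytes (right), with bars for the SE of the fit. Filled points passed the limma test, among them Pdk4 in all 4 contrasts and Tsc22d3, Dusp1 and Nr3c1 in adult cells (left) and on wild-type sections (right).

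Whether the section acted differently on adult and on neonatal cells was tested as the adult section difference minus the neonatal one. Dusp1 and Tsc22d3 passed, both with the more negative difference in adult cells, which makes 2 of 10 lower and none higher where 10.1% of all genes passed, 4.88% lower and 5.19% higher. The difference of differences was -0.71 ± 0.20 for Dusp1 (adjusted p = 0.0415) and -0.62 ± 0.14 for Tsc22d3 (adjusted p = 0.0180). Nr3c1 (-0.39 ± 0.13, adjusted p = 0.0835), Fkbp5 (-0.32 ± 0.10, adjusted p = 0.0712) and Pdk4 (0.39 ± 0.28, adjusted p = 0.466) did not pass, so the Nr3c1 and Pdk4 section differences are not shown to differ between ages. Single probe sets passed for 1416125_at of Fkbp5 (-0.75 ± 0.14), 1425281_a_at of Tsc22d3 (-1.21 ± 0.17) and 1421866_at of Nr3c1 (-1.50 ± 0.35), with adjusted p of 0.00704, 0.00119 and 0.0229 over all probe sets. The Dusp1 call was lost without 9 of the 12 arrays, with adjusted p of 0.0848, 0.0648 and 0.0660 without adult APdE9 1, 2 and 3, 0.0982 without adult wild-type 2, 0.0847 and 0.0954 without neonatal APdE9 1 and 2, and 0.0710, 0.0562 and 0.0800 without neonatal wild-type 1, 2 and 3. The Tsc22d3 call was lost without neonatal wild-type 2 (0.0506), Nr3c1 was called without adult APdE9 1 (0.0233), and quantile normalization left Dusp1 and Tsc22d3 uncalled (0.130 and 0.0605). Tested over all probe sets, the Dusp1 probe set did not pass (0.0615).

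**Figure D3:**
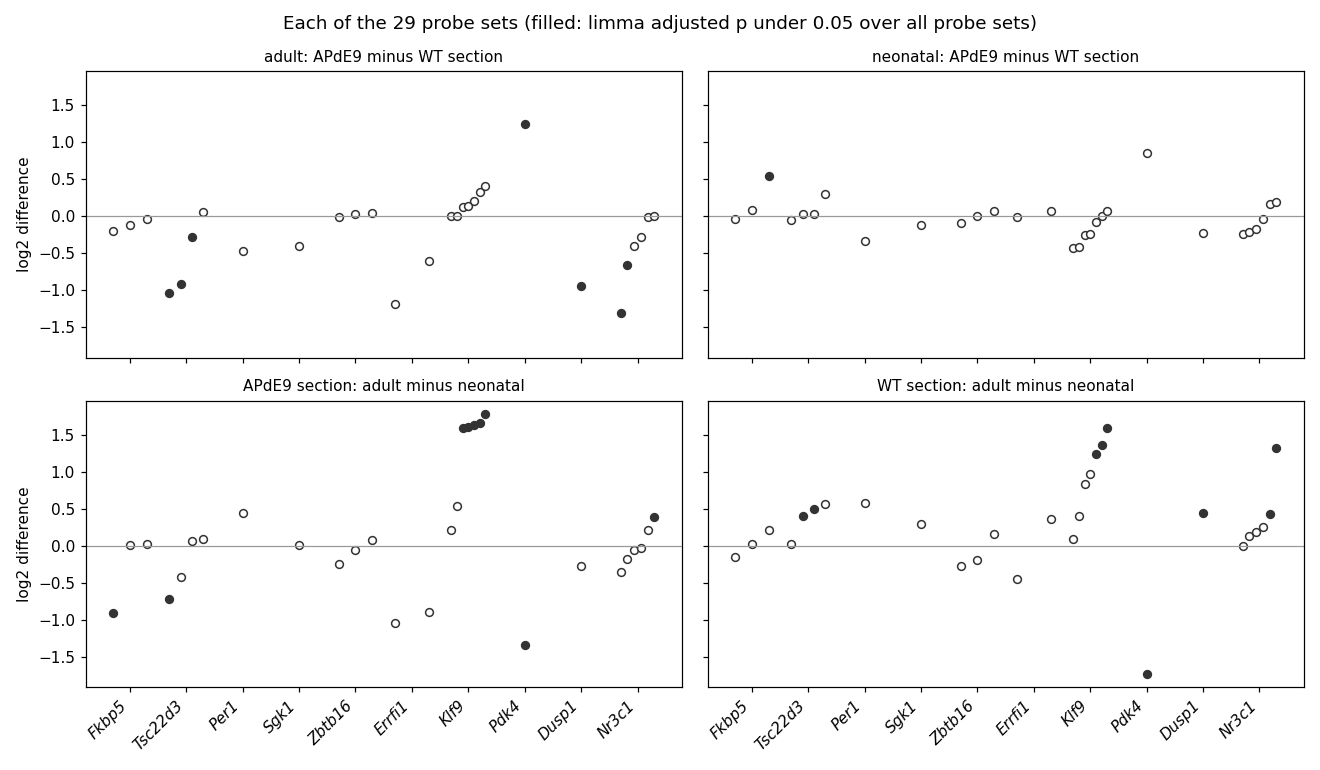
Log2 difference (vertical axis) of each of the 29 probe sets, by gene along the horizontal axis and ordered by value within a gene, in 4 contrasts. Filled dots passed the limma test over all probe sets. For Fkbp5, Tsc22d3, Klf9 and Nr3c1 some probe sets of a gene passed while others lay near 0.

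Adult and neonatal astrocytes differed on wild-type sections in 5 of the 10 genes: Klf9, Dusp1, Nr3c1 and Tsc22d3 were higher and Pdk4 lower in adult cells, whose medium had held hydrocortisone. Across all genes 30.1% were called, 14.9% higher and 15.2% lower. The median difference of the 10 genes was 0.34, against 0.01 for all genes, and 5 of the 10 did not overlap between the ages, against 42% of all genes. On APdE9 sections 1 gene, Klf9, was higher and 2, Pdk4 and Fkbp5, were lower in adult cells, where 23.5% of all genes were called, 11.7% higher and 11.9% lower. With replicate number as a block 4 of the 10 were lower on APdE9 sections, Tsc22d3 and Errfi1 added. There the median difference was -0.16, against 0.05 for all genes, and 3 of the 10 did not overlap, against 37.2%. The age comparison on either section uses the same arrays as the section comparison at either age, so the 4 contrasts are not independent of each other.

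Klf9 was higher in adult cells on both sections, by 1.29 ± 0.29 on APdE9 sections (2.45-fold, adjusted p = 0.00550) and by 0.93 ± 0.29 on wild-type sections (1.91-fold, adjusted p = 0.0273). All adult pools lay above all neonatal pools. Of its 7 probe sets, 5 were higher in adult cells on APdE9 sections, by 1.59 to 1.79, and 3 on wild-type sections, by 1.24 to 1.59. Probe set 1436952_at, at 0.22 and 0.10, did not follow, and 1452723_at, at 0.54 on APdE9 and 0.41 on wild-type sections, was called only on APdE9 sections with replicate number as a block (adjusted p = 0.0390). The call on wild-type sections was lost without adult wild-type 1 or 2 (adjusted p = 0.108 and 0.0869), without neonatal wild-type 2 or 3 (0.0525 and 0.0994) and with quantile normalization (0.0604).

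Pdk4 ran opposite to Klf9 and was lower in adult cells, with differences of -1.34 ± 0.20 on APdE9 sections and -1.73 ± 0.20 on wild-type sections (adjusted p = 0.000324 and 2.73e-05). No adult pool reached the neonatal pools on the same section. On wild-type sections adult cells thus had 3.32-fold less Pdk4 signal than neonatal cells. Its adjusted p was at most 0.00241 on APdE9 and 0.000223 on wild-type sections whichever array was left out.

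Nr3c1, Tsc22d3 and Dusp1 were higher in adult than in neonatal cells on wild-type sections, by 0.39 ± 0.09, 0.37 ± 0.10 and 0.44 ± 0.14 (adjusted p = 0.00596, 0.0141 and 0.0307). The 3 adult pools lay above the 3 neonatal pools for each of these genes. Tested over all probe sets, 2 of 6 for Nr3c1, 2 of 4 for Tsc22d3 and the 1 for Dusp1 were higher on wild-type sections. The probe sets ranged from 0.01 to 1.33 for Nr3c1 and from 0.03 to 0.57 for Tsc22d3. Of the 2 called for Tsc22d3, 1 was 1425557_x_at (0.40 ± 0.09). On APdE9 sections Nr3c1 differed by 0.00 ± 0.09, Tsc22d3 by -0.24 ± 0.10 and Dusp1 by -0.27 ± 0.14 (adjusted p = 0.997, 0.111 and 0.206). With replicate number as a block, the arrays on APdE9 sections being paired by number, Tsc22d3 was called lower in adult cells there (adjusted p = 0.0455). Its probe sets disagreed on APdE9 sections. Without the block 1425281_a_at was lower in adult cells (-0.71 ± 0.12, adjusted p over all probe sets 0.00093), while the rest lay between -0.42 and 0.09 and were not called. The same interaction as above is the test of whether age acted differently on the 2 sections, and it passed for Tsc22d3 and Dusp1. The Tsc22d3 call on wild-type sections was lost without neonatal wild-type 2 or 3 (0.0535 and 0.0517) and the Dusp1 call without neonatal wild-type 1 or 3 or adult wild-type 2 (0.0711, 0.0970 and 0.140) or with quantile normalization (0.116), while the Nr3c1 call was lost with the median of its probe sets (0.0546). Without neonatal APdE9 3, Tsc22d3 and Dusp1 were called lower in adult cells on APdE9 sections (0.0239 and 0.0469).

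Fkbp5 was lower in adult than in neonatal cells on APdE9 sections (-0.29 ± 0.07, adjusted p = 0.0112), and the adult and neonatal pools did not overlap. On wild-type sections the difference was 0.03 (95% interval -0.12 to 0.19). The call on APdE9 sections came from probe set 1416125_at, at -0.90 ± 0.10 (adjusted p over all probe sets 2.95e-05), while the other 2 gave 0.03 and 0.01. With the median of the probe sets the gene was at -0.11 (adjusted p = 0.452), and with only the 6 arrays on APdE9 sections the adjusted p was 0.0570. Errfi1 differed by -0.97 ± 0.39 between adult and neonatal cells on APdE9 sections (adjusted p = 0.0976), was called with replicate number as a block (0.00236) and without adult APdE9 1 or adult wild-type 3 (0.0361 and 0.0344), and differed by -0.04 ± 0.39 on wild-type sections. Its 2 probe sets went opposite ways on wild-type sections, 1416129_at by -0.45 ± 0.37 and 1419816_s_at by 0.37 ± 0.42, and neither was called. On APdE9 sections they gave -1.04 ± 0.37 and -0.89 ± 0.42. Per1 (0.45 ± 0.30 on APdE9 and 0.58 ± 0.30 on wild-type sections), Sgk1 (0.02 ± 0.25 and 0.30 ± 0.25) and Zbtb16 (-0.07 ± 0.08 and -0.10 ± 0.08) were not called. Of the receptor targets, Klf9 was thus called higher in adult cells on both sections, and Tsc22d3 and Dusp1 on wild-type sections only. Fkbp5, Per1, Sgk1, Zbtb16, Errfi1 and Pdk4 were called higher on neither, though for Per1 the 95% interval on wild-type sections was -0.07 to 1.24. The part of hydrocortisone in these differences was not tested.

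Probe set by probe set, 6 of 29 were lower and 1 higher in adult cells on APdE9 against wild-type sections, where 12.7% of all probe sets were called, 6.98% lower and 5.73% higher. In neonatal cells 1 of 29 was higher and none lower, against 0.582% and 1.42% (2% in all), and with replicate number as a block 2 were higher, the Pdk4 probe set added (adjusted p = 0.0249). For the difference of these contrasts 3 of 29 were lower and none higher, against 3.36% lower and 3.36% higher (6.73% in all). Adult against neonatal cells gave 6 higher and 3 lower on APdE9 sections, against 8.04% and 8.39% (16.4% in all), with 7 higher and 5 lower under the replicate block, and 8 higher and 1 lower on wild-type sections, against 12.2% and 10.8% (22.9% in all). Of the 6 higher on APdE9 sections, 5 were of Klf9 and the sixth was 1453860_s_at of Nr3c1 (0.39 ± 0.08, adjusted p = 0.00614). Probe sets of a gene share its transcript and are not independent.

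Several of the 10 genes also moved with the replicate number, which the labels repeat in every group. In all 4 groups the arrays numbered 3 were lowest for Sgk1, Errfi1 and Klf9, a pattern shared by 4.93% of all genes. In all 4 groups the arrays numbered 1 were highest for Tsc22d3 and Klf9, as they were for 699 of the 18193 genes. The arrays numbered 2 were highest in all 4 groups for Dusp1, as they were for 171 genes. Per1, Sgk1, Errfi1 and Klf9 had pooled within-group SDs of 0.44, 0.36, 0.57 and 0.42, each above that of at least 96.3% of genes, against a median SD of 0.134 over all genes. What the number marks (a day, a culture or a litter) is not given in the labels.

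**Figure D4:**
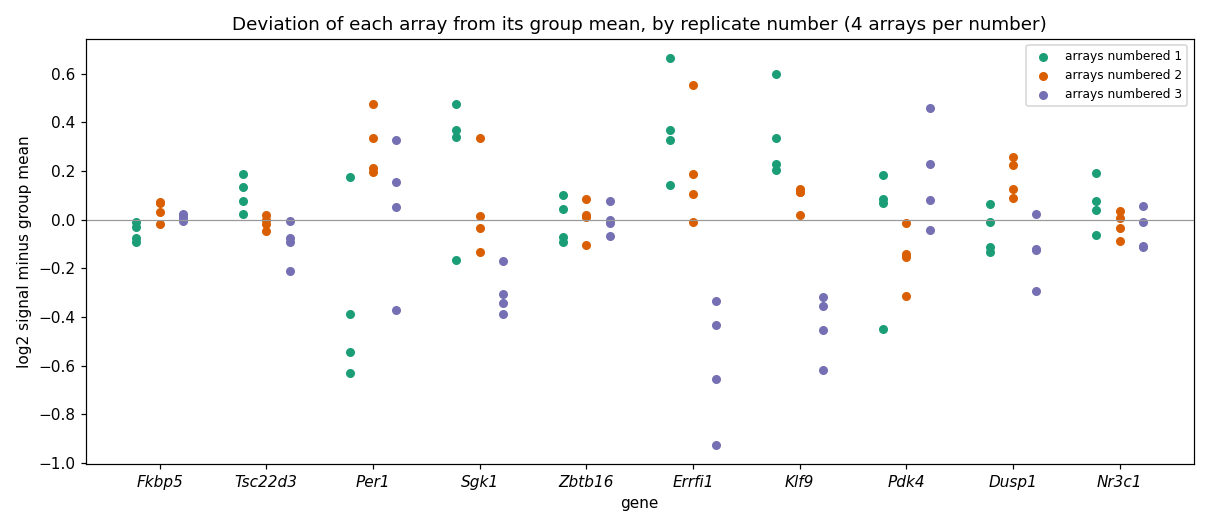
Deviation of each array from its group mean (vertical axis, log2) for the 10 genes (horizontal axis), coloured by replicate number, with 4 arrays per number. All 4 arrays numbered 3 lie below their group means for Sgk1, Errfi1 and Klf9.

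Beyond the receptor, 12 of 16 genes of its chaperone, co-regulator and hormone-metabolism machinery were measured. Nr3c2, the mineralocorticoid receptor, which also binds glucocorticoids, was higher in adult cells on APdE9 than on wild-type sections (0.46 ± 0.11, adjusted p = 0.0149) and lower in neonatal cells (-0.69 ± 0.11, adjusted p = 0.00565). The section difference of Nr3c2 differed between the ages by 1.15 ± 0.16 (adjusted p = 0.000913), with a sign opposite to that of Dusp1 and Tsc22d3. Nr3c2 was lower in adult than in neonatal cells on both sections (-0.38 ± 0.11 on APdE9, -1.54 ± 0.11 on wild-type). Hsd11b1, the enzyme that regenerates active glucocorticoid inside cells, was higher in adult cells on both sections (0.83 ± 0.12 on APdE9, 1.23 ± 0.12 on wild-type, adjusted p = 0.000292 and 7.35e-06). The chaperone Hspa8 was lower (-0.66 ± 0.13) and the co-chaperone Stip1 higher (0.34 ± 0.08) in adult cells on APdE9 than on wild-type sections.

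Of 24 other genes known to be raised by glucocorticoids, 3 were higher and 2 lower in adult cells on APdE9 than on wild-type sections, and 1 was higher and 2 lower in neonatal cells (2 and 2 with replicate number as a block), with medians of -0.03 and -0.08. Angptl4, a lipase inhibitor that shares regulation by fatty acids with Pdk4, was higher on APdE9 sections in adult (1.48 ± 0.19) and neonatal cells (1.04 ± 0.19). The acute phase gene Lcn2 was higher in adult cells (2.83 ± 0.14), and Anxa1, an anti-inflammatory annexin, was lower (-1.17 ± 0.24). Gjb6, an astrocyte gap junction gene, was lower in adult (-0.64 ± 0.12) and in neonatal cells (-0.56 ± 0.12). Between adult and neonatal cells the list went both ways, with 4 higher and 5 lower on APdE9 (6 and 6 with replicate number as a block) and 6 higher and 5 lower on wild-type sections. The median differences were 0.14 and 0.06, against 0.05 and 0.01 for all genes. Lcn2 differed by -5.00 ± 0.14 between adult and neonatal cells on APdE9 and by -7.91 ± 0.14 on wild-type sections. Mertk, a phagocytosis receptor, differed by -1.85 ± 0.18 and -1.61 ± 0.18, while Angptl4 (1.55 ± 0.19 and 1.10 ± 0.19) and Cdkn1c, a cell cycle inhibitor (1.49 ± 0.16 and 1.24 ± 0.16), were higher in adult cells on both.

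Of 18 genes known to be held down by glucocorticoids, 9 were lower and 2 higher in adult than in neonatal cells on APdE9 sections, and 11 were lower and 2 higher on wild-type sections, with median differences of -1.11 and -1.90, against 0.05 and 0.01 for all genes. Il1a, an inflammatory cytokine, differed by -4.06 ± 0.57 and -4.37 ± 0.57, and the chemokine Ccl5 by -1.48 ± 0.08 and -6.09 ± 0.08. Microglia express many of these genes, and 12 of 13 microglial markers were lower in adult cells too. The other, Tmem119, was higher on wild-type sections and not called on APdE9 sections. The median of the 13 microglial markers was -3.63 on APdE9 and -4.49 on wild-type sections, although both cultures had been shaken to remove microglia. Their part in the shift of the list was not tested. The 2 genes called higher in adult cells on both sections were Col1a1, a fibroblast collagen (3.08 ± 0.16 on APdE9, 4.06 ± 0.16 on wild-type), and Ptgs2, the inducible cyclooxygenase (2.23 ± 0.35 and 2.40 ± 0.35), the last named after its values were seen. Between sections, 5 were higher and 2 lower in adult cells on APdE9 sections (median 0.46). The largest differences were those of Ccl5 (4.97 ± 0.08), the collagenase Mmp13 (4.29 ± 0.48) and Mmp3 (1.98 ± 0.08), which were higher. Next in size was the chemokine Cxcl1, which was lower (-1.87 ± 0.56). In neonatal cells 3 were higher and 1 lower (median 0.26). The lower one, Col1a1, had the largest difference (-0.82 ± 0.16), and Mmp3 (0.78 ± 0.08) and Ccl5 (0.36 ± 0.08) were among the higher ones. The microglial markers that were higher on APdE9 sections stand above, and their part here was not tested.

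Clock genes share targets and cofactors with Per1. Of 14, 1 was higher in adult cells on APdE9 than on wild-type sections (Clock, 0.34 ± 0.09), where 8.26% of all genes were higher. None was called between sections in neonatal cells. In adult against neonatal cells 3 were higher on each section and none lower (medians 0.20 on APdE9, 0.30 on wild-type sections). They were led by the nuclear receptor Nr1d1 (1.55 ± 0.26 on APdE9, 0.84 ± 0.26 on wild-type sections). For adult against neonatal cells, 11.7% of all genes were higher and 11.9% lower on APdE9 sections (median 0.05). On wild-type sections these shares were 14.9% and 15.2% (median 0.01). Of 16 immediate early genes, 2 were higher in adult than in neonatal cells on APdE9 sections (median 0.12). With replicate number as a block 6 were higher and 2 lower there. On wild-type sections 3 were higher (median 0.34). Of 17 relatives of the 10 genes, none was higher and 6 were lower in adult than in neonatal cells on APdE9 sections (median -0.33). On wild-type sections 2 were higher and 6 lower (median 0.01). Klf15, a Krüppel-like relative of Klf9 that is itself a known receptor target, was lower in adult cells on both sections. Its differences were -1.09 ± 0.22 on APdE9 and -1.06 ± 0.22 on wild-type sections, opposite in sign to Klf9.

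**Figure D5:**
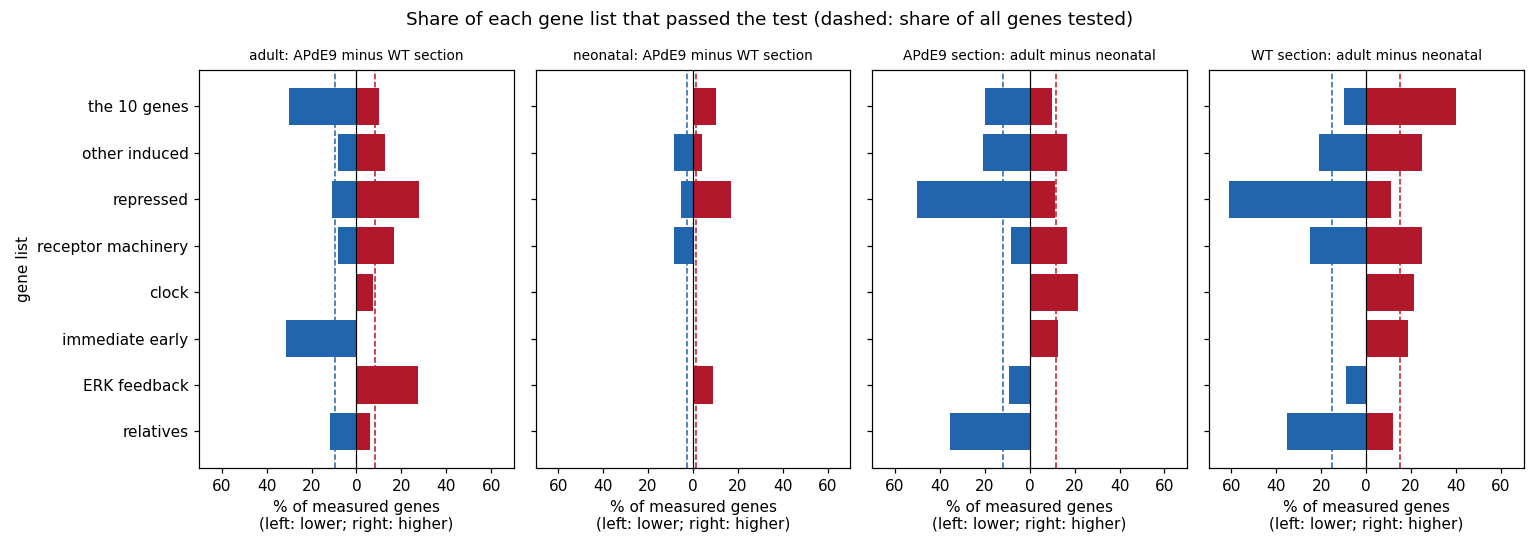
Share of the measured genes of each list (rows) that were called higher (right, red) or lower (left, blue) in 4 contrasts, in percent, with the share of all genes as dashed lines. The list of genes known to be repressed by glucocorticoids has 11 of 18 called lower in adult than in neonatal cells on wild-type sections.

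The genes most like Fkbp5 and Tsc22d3 across the 12 arrays were sought by the smallest root-mean-square difference on the log2 scale after centring each gene on its mean. For Fkbp5, whose own root-mean-square deviation was 0.114, they were Gfra2 (0.0638), Diaph2 (0.0655) and Cog7 (0.0699). For Tsc22d3, with a deviation of 0.221, they were Klhdc1 (0.0740), Swap70 (0.0788) and Ankrd44 (0.0905). None of these 6 genes is among the lists used here, and the 12 arrays share the groups and the replicate numbers.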

How the data were processed

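RNA of 12 astrocyte pools was hybridised to Affymetrix arrays. Per the submitters' processing notes the software was RMA, with neither version nor log base given, and 8 of the deposited columns were read as log2 signal. For 4 columns the unit score was entered: the deposited data there include 6 whole numbers above 20 in size, apparently values without their decimal point. These 6, none of them in a probe set of the 10 genes, were treated as missing, and all else in those columns was read as log2 signal. Every one of 45101 probe sets had a median of 0 across arrays (tolerance 1e-06), so levels and signal over background are unknown. Signs were kept as deposited. The medians of single arrays ranged from -0.039 to 0.034.

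After 64 control probe sets were left out, 34945 of 45037 probe sets had 1 gene symbol in the supplied annotation, 932 several and 9160 none, and 34741 matched the RefSeq table. Gene values were means of single-gene probe sets. limma 3.58.1 in R 4.3.3 (package data.table at version 1.17.8) fitted 4 group means to 12 arrays with no block (prior degrees of freedom 3.97, residual 8), tested on simulated data. The 5 comparisons were adjusted by Benjamini-Hochberg over all genes at 0.05, or over all probe sets where a probe set is named. Figures were drawn with matplotlib 3.10.9 in Python 3.11.15 with pandas 2.3.3. The 10 genes and all gene lists were chosen with earlier results of these data known. All 10 genes are reported, and of other lists counts and up to 4 called genes with the largest differences; of the genes most like Fkbp5 and Tsc22d3, the 3 nearest each.

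Same-numbered arrays were compared by the correlation of their deviations from group means. It was 0.305, 0.147 and 0.519 for numbers 1, 2 and 3 between sections in neonatal cells, and 0.460, 0.206 and 0.473 between ages on APdE9 sections, so numbers pair the arrays there and a block on replicate number is given beside a named gene whose call it changes and beside counts it moves by over 1.5 times. Between sections in adult cells it was 0.348, -0.147 and 0.496, and between ages on wild-type sections 0.404, 0.025 and 0.405. In both, number 2 fell short of the 0.1 required of every number. Pairing by number is therefore not shown there, and neither is its absence. The alternatives tried were median centring, quantile normalization, robust moderation, array weights, fits of only the arrays compared, restored decimal points, the median of probe sets, a filter on variable genes, a 0.01 threshold, tests on probe sets and leaving out each array; the 8 arrays numbered 1 and 2 were added after seeing the data. Motifs were searched on both strands of the RefSeq windows.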

Additional observations from a re-analysis of the deposited data

Results flagged for a closer look

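The section difference (APdE9 minus wild-type) differed between adult and neonatal astrocytes for 2 of the 10 genes and, over all probe sets, for 3 probe sets. For Tsc22d3 the adult difference minus the neonatal one was -0.62 (log2, limma adjusted p = 0.0180), with adult pools lower on APdE9 sections in 3 of 3 and neonatal pools overlapping. For Dusp1 it was -0.71 (adjusted p = 0.0415), also with all 3 adult pools on APdE9 sections below the 3 on wild-type sections. Probe set 1416125_at of Fkbp5 gave -0.75 (adjusted p = 0.00704), with all neonatal pools higher and all adult pools lower on APdE9 sections. Probe set 1425281_a_at of Tsc22d3 gave -1.21 (adjusted p = 0.00119). Probe set 1421866_at of Nr3c1 gave -1.50 (adjusted p = 0.0229), while the gene as a whole was at -0.39 and not called (adjusted p = 0.0835).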

How the results depend on the processing

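Signal over background cannot be read from centred values, 3 pools per group limit the precision, and a median of probe sets or a single probe set can decide a call where probe sets disagree. Apart from left-out arrays, 493 alternative values kept their direction and side of the threshold, 18 lost and 9 gained the threshold and 10 reversed. The stricter threshold, robust moderation and the filter on variable genes leave each difference as it was. So do fits of only the arrays compared and the replicate block. Restored decimal points touched no probe set of the genes described here. In all these settings only the side of the threshold could change, so the 493 do not measure how stable the directions are.

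Of the 10 genes, 1, 4, 2, 5 and 3 were called between sections in neonatal cells, between sections in adult cells, for the difference of these, between ages on wild-type and between ages on APdE9 sections, and of all genes 684, 3213, 1831, 5482 and 4279. Quantile normalization called 0 of the 10 for the difference of section differences and 3 between ages on wild-type sections. Array weights called 4 of the 10 and 3427 of all genes for the difference, and 2160 of all genes between sections in neonatal cells. With the replicate block 5 of the 10 were called between ages on APdE9 sections, Tsc22d3 and Errfi1 added; Errfi1 was also called between sections in adult cells (adjusted p = 0.00535) and for the difference (0.0392), contrasts whose numbers are not shown to pair the arrays, and the block changed no other call of the 10 genes. Only the arrays compared gave 0 of the 10 and 272 of all genes between sections in neonatal cells. A threshold of 0.01 gave 0, 0 and 2 of the 10 between sections in neonatal cells, for the difference and between ages on wild-type sections, and 248, 1844, 818 and 2850 of all genes between sections in neonatal and in adult cells, for the difference and between ages on APdE9 sections. The 8 arrays numbered 1 and 2, chosen after seeing the data, gave 3 of the 10 between ages on wild-type sections, and 244 of all genes between sections in neonatal cells and 1173 for the difference. With them Tsc22d3 and Dusp1 were not called between ages on wild-type sections (adjusted p = 0.0627 and 0.0573), nor Fkbp5 on APdE9 sections (0.120), while Errfi1 was called between sections in adult cells (0.0101) and between ages on APdE9 sections (0.0212). Tests on probe sets called 5 of the 10 between ages on APdE9 sections, but lost Pdk4 between sections in neonatal cells (0.0595) and Dusp1 for the difference (0.0615). Fkbp5 was called for the difference with median centring (0.0403) and array weights (0.0442), and Nr3c1 with array weights (0.0217).

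Signs reversed only for uncalled genes: with quantile normalization Per1 for the difference (0.090) and Nr3c1 between ages on APdE9 sections (-0.0047); with median centring Sgk1 (-0.018) and Nr3c1 (-0.035) between ages on APdE9 sections; with array weights Errfi1 between sections in neonatal cells (-0.098), Per1 for the difference (0.085) and Nr3c1 between ages on APdE9 sections (-0.023); with the median of probe sets Zbtb16 between sections in neonatal cells (0.039); and with the 8 arrays Errfi1 between sections in neonatal cells (-0.020) and between ages on wild-type sections (0.21). The cause was not tested. Leaving out each array gave 0 to 1, 4 to 5, 0 to 2, 2 to 5 and 3 to 5 of the 10 genes in the 5 contrasts in the order above, and 263 to 761, 2174 to 3382, 1208 to 1811, 4426 to 5499 and 3488 to 4386 of all genes. Signs changed on leaving out an array for these ranges: between sections in neonatal cells, Tsc22d3 -0.0212 to 0.18, Sgk1 -0.31 to 0.0733, Zbtb16 -0.0439 to 0.0395, Errfi1 -0.19 to 0.20; between sections in adult cells, Zbtb16 -0.0268 to 0.0773, Klf9 -0.13 to 0.48; for the difference of section differences, Per1 -0.37 to 0.18, Zbtb16 -0.0215 to 0.0826; between ages on wild-type sections, Errfi1 -0.32 to 0.42; between ages on APdE9 sections, Sgk1 -0.22 to 0.19, Nr3c1 -0.096 to 0.0544. Fits of only the arrays compared do not apply to the difference, and the filter on variable genes leaves out some of the 10 genes. The 4 calls between sections in adult cells held without each of the 12 arrays.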
